A study of Homo sapiens with 9 samples.

Results

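The transcripts described here are those of the endoplasmic reticulum (ER) folding machinery and of the unfolded protein response in the human hepatoma cell line HepG2, an established line that secretes many liver proteins. They were chosen by name: 35 gene symbols covering ER chaperones and their cofactors, lectins, disulfide enzymes, the translocon, ER-associated degradation, and the sensors and transcription factors of the response. Of the 35, 34 had a probe set with 1 gene symbol, out of 19775 genes measured, and SYVN1 was not analysed here. RNA was read on 9 Affymetrix 3′ arrays. Of these, 3 were of HepG2 cells under DMSO, the vehicle, 3 of cells under GW7647 at 100 nM for 6 h, and 3 of cells under GW7647 at 100 nM for 24 h. GW7647 is a synthetic agonist of PPARα, the nuclear receptor through which fatty acids switch on genes of lipid oxidation in liver. All groups were the same tumour line, grown in serum-containing medium without phenol red. The vehicle arrays serve as the control for both times, and for how long those cells were held in DMSO is not stated in the labels, so ligand exposure and time in culture cannot be told apart. The labels do not say that replicates were separate cultures, so the p-values measure the spread among the arrays as labelled, which could be technical spread alone.

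The ER folds and modifies secreted and membrane proteins, a heavy task in hepatocytes, which export most plasma proteins. When unfolded protein accumulates, the chaperone BiP is drawn away from the membrane sensors IRE1, PERK and ATF6. IRE1 then splices XBP1 mRNA, PERK slows translation and favours ATF4, and ATF6 is cut in the Golgi to release a transcription factor. XBP1 and ATF6 bind ER stress elements in the promoters of chaperone and degradation genes.

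The promoters of the 34 genes and SYVN1 were read from RefSeq (GRCh38.p14) as windows of 300 bases, from 250 before to 50 after each annotated gene start. Such windows were at hand for 32 of the 35 genes and for 27305 genes in all. The ER stress element, searched on both strands as CCAAT, 9 bases of any kind and CCACG, was found in 8 of the 32 (25%) and in 25 of the 27305 (0.0916%). Element II, searched on both strands as ATTGG, 1 base of any kind and CCACG, was found in 3 of the 32 (9.38%) and in 19 of all genes (0.0696%). Together 11 of the 44 genes that held either one were members of this list. These genes were listed as targets of the response, so the high share describes the list and not the treatment. The matches are shown because they are the sequences through which XBP1 and ATF6 are known to act. Each is written 5′ to 3′ in the direction of the element, with the searched letters in capitals.
HSPA5: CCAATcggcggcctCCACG
HSP90B1, upstream match: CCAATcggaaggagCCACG
HSP90B1, downstream match: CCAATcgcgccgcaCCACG
CALR: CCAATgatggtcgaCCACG
CANX: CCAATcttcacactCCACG
PDIA6: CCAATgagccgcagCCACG
XBP1: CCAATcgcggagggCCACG
CRELD2: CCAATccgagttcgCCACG
ERO1B: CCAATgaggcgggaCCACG
SDF2L1, element II: ATTGGtCCACG
HERPUD1, element II: ATTGGgCCACG
HYOU1, element II, upstream match: ATTGGaCCACG
HYOU1, element II, downstream match: ATTGGaCCACG

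The HSPA5 match lay at chr9:125241391-125241409 on the minus strand, with its first base at -66 from the annotated start. The XBP1 match lay at chr22:28800603-28800621 on the minus strand and the HERPUD1 match at chr16:56932025-56932035 on the plus strand, at -52 and -117. The CANX match lay at chr5:179698778-179698796 on the plus strand, at -151 from the start of its first listed window. The windows of HERPUD1, XBP1 and CANX are printed whole because these genes held an element and passed the test in at least 1 comparison. That of ERN1, which encodes IRE1, is printed as a gene that passed and held neither element. All 4 run 5′ to 3′ in the gene's direction, and capitals mark every base of a motif match.
HERPUD1, chr16:56931892-56932191, plus strand: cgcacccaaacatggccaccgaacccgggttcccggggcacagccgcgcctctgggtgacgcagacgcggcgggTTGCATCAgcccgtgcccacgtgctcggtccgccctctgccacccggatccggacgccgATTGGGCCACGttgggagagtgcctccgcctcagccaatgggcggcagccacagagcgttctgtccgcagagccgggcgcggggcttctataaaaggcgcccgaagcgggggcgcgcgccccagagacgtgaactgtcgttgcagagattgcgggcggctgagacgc
XBP1, chr22:28800520-28800819, minus strand: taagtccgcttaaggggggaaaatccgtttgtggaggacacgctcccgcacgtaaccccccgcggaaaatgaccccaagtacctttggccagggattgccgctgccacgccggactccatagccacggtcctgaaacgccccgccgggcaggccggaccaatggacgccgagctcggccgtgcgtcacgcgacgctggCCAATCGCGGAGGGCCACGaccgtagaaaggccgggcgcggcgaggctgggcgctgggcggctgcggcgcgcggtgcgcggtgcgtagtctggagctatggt
CANX, chr5:179698679-179698978, plus strand: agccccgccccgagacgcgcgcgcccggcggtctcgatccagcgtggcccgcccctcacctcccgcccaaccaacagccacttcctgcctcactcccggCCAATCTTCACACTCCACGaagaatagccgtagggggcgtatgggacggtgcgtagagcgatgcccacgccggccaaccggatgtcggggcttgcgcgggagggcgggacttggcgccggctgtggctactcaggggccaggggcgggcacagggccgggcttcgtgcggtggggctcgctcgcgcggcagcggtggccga
ERN1, chr17:64130095-64130394, minus strand: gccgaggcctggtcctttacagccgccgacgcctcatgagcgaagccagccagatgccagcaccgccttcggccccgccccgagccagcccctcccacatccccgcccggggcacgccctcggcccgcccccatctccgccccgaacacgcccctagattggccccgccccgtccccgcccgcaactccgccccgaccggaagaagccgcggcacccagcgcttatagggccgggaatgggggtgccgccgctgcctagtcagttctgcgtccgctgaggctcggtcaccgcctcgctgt

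The first capital stretch of the HERPUD1 window matches the C/EBP-ATF composite, searched as TGATGNAA on both strands, the kind of site bound by ATF4 and CHOP. It was found in 2 of the 32 genes (6.25%), HERPUD1 and CREB3L2, and in 4.46% of all genes. The unfolded protein response element TGACGTGG, also bound by XBP1 and ATF6, was found in DNAJC10 and HYOU1 (6.25%) and in 0.927% of all genes, and in HYOU1 it overlapped element II. The PPAR element, searched on both strands as AGGTCA repeated after 1 base of any kind, was found in 0 of the 32 windows and in 8 of all genes (0.0293%).

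**Figure D1:**
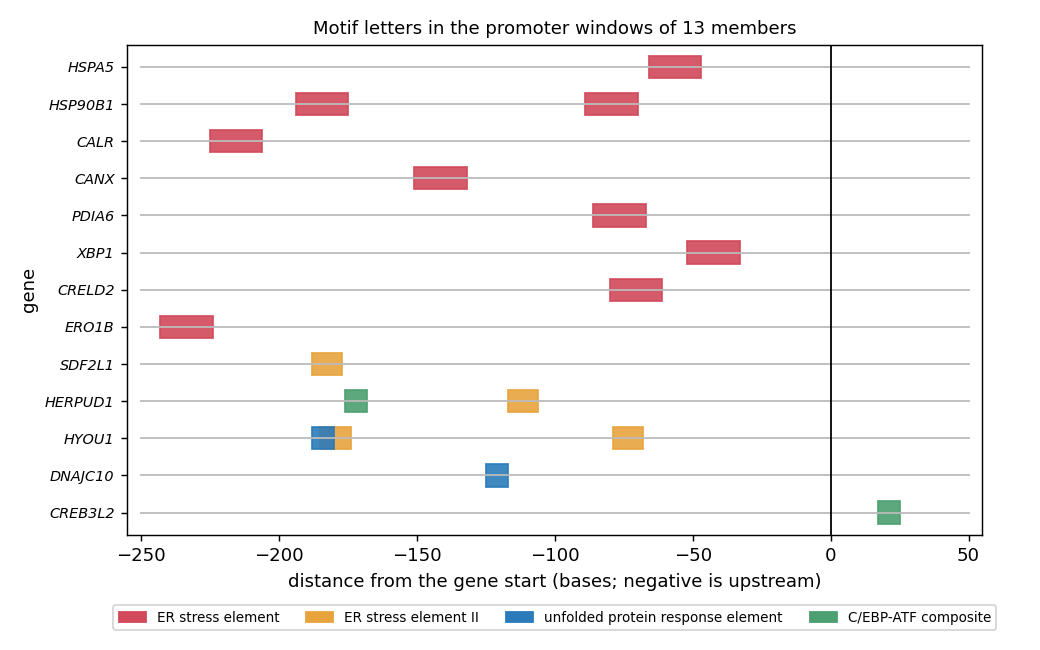
Positions of the motif letters in the RefSeq promoter windows of 13 members, plotted as bases from the annotated gene start (250 before to 50 after), with 1 line per gene and 1 colour per motif. The ER stress elements of HSPA5 and XBP1 lie at -66 and -52, and the ER stress element II of HERPUD1 lies at -117.

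The deposited values are log2 RMA signals, so a difference of 1 is a factor of 2 in signal, and levels of different probe sets are not compared. Within a group, r between arrays across genes was 0.997 to 0.999. Of 12 hepatocyte markers 11 were measured, and all 11 lay above the median of all genes, which does not single out HepG2. Their summed log2 signal ran from 17.50 to 17.51 in vehicle, 17.45 to 17.48 at 6 h and 17.45 to 17.49 at 24 h. Of these 11, none passed at 6 h. TTR and FGB, 2 secreted plasma proteins, fell at 24 h, by 0.55 and 0.67, beside 2.8% of all genes. Of 19 markers of blood, endothelial, stromal and biliary cells, 7 lay above that median, with summed log2 signal of 12.77 to 12.91 in vehicle, 12.80 to 12.85 at 6 h and 12.74 to 12.87 at 24 h. Mean signals of the 19 ran from 3.56 to 11.93, with a median of 5.83. One of the 19, the monocyte marker CD14, fell at 6 h (by 0.29), beside 1.91% of all genes. None passed at 24 h, and the part of these cell types in the results was not tested. The array of vehicle replicate 2 stood apart for these genes: it was the farthest of the 3 vehicle arrays for 24 of the 34, above the others for 12 and below for 12, against 40.4% of all genes. Its member values lay from -0.41 to 0.53 log2 units from the mean of the other vehicle arrays. Calls of members that it moved are given without it as well, as are some medians.

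At 6 h, 0 of the 34 transcripts rose and 1 fell, HERPUD1 (limma, Benjamini-Hochberg adjustment over 19775 genes, called at an adjusted p under 0.05). The share called lower was 2.94%, against a background of 1.91% of all genes lower and 1.64% higher (3.54% called in all). Ignoring adjustment, 5 of 34 had a p under 0.05. The signal was below vehicle in mean for 26 of the 34 and above for 8, beside 9583 and 10192 of all 19775 genes. The median difference was -0.06, beside 0.0039 over all genes. The differences ran from -0.26 to 0.12. All 3 arrays at 6 h lay below all 3 vehicle arrays for 10 of the 34, against a background of 10.3% of all genes, and above them for 0, against 10.5%. In bulk RNA, fewer cells of a kind and less RNA per cell cannot be told apart.

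At 24 h, 2 of the 34 rose (ERN1 and HERPUD1, 5.88% against a background of 5.38%) and 5 fell (DNAJC10, DNAJB11, SEL1L, DERL2 and CANX, 14.7% against 2.8%). All genes were called at 8.17%. The remaining 27 did not pass, although 14 of the 34 had an unadjusted p under 0.05. The mean lay below vehicle for 26 and above for 8, beside 9668 and 10107 of all 19775 genes. The median was -0.07, beside 0.0034 over all genes, with a range from -0.34 to 0.46. Without vehicle replicate 2 the median was -0.04. The 24 h arrays lay wholly below vehicle for 12 of the 34, against a background of 8.95% of all genes, and wholly above for 2, against 14%. Both comparisons share the vehicle arrays. The number that fell depended on single arrays. It was 8 without vehicle replicate 2, 3 without replicate 2 or 3 at 6 h, and 2 without replicate 1 at 6 h or replicate 3 at 24 h. It was 1 without vehicle replicate 1 or 3 or replicate 2 at 24 h, and 0 without replicate 1 at 24 h. It was also 9 after quantile normalization and 2 after median centring, with 2 higher in both. The shares of all genes here and below include genes of low signal. With the fit confined to genes above the median signal, a smaller set, 2343 genes were called at 24 h, beside 1616 over all genes. The background share among brighter genes was thus higher than 8.17%. In that fit 2 of its 32 members rose and 10 fell. Most members lay above the median signal, so the 14.7% is not set against a background of like signal.

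Between the treated groups, which do not involve vehicle in the difference, 4 transcripts were higher at 24 h than at 6 h (HERPUD1, ERN1, XBP1 and PDIA4, 11.8% against 9.23% of all genes). DNAJC10, DNAJB9 and DERL2 were lower (8.82% against 4.57%), and 13.8% of all genes were called. Signs were split evenly, 17 higher and 17 lower, with a median of 0.0055 beside -0.0097 over all genes. Only 2 were called higher without replicate 2 or without replicate 3 at 6 h. Without vehicle replicate 2, 6 were higher, with CREB3L2 (0.18, limma adjusted p = 0.0316) and PDIA3 (0.25, 0.0179) added. In the same fit 4 were lower, with DNAJB11 (-0.19, 0.0376) added. With all 9 arrays, 10 of the 34 passed in at least 1 comparison, HERPUD1 in all 3, and 24 in none. Of the 34, 21 were below vehicle in mean at both times and 3 above at both, 5 were below at 6 h and above at 24 h, and 5 the reverse.

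**Figure D2:**
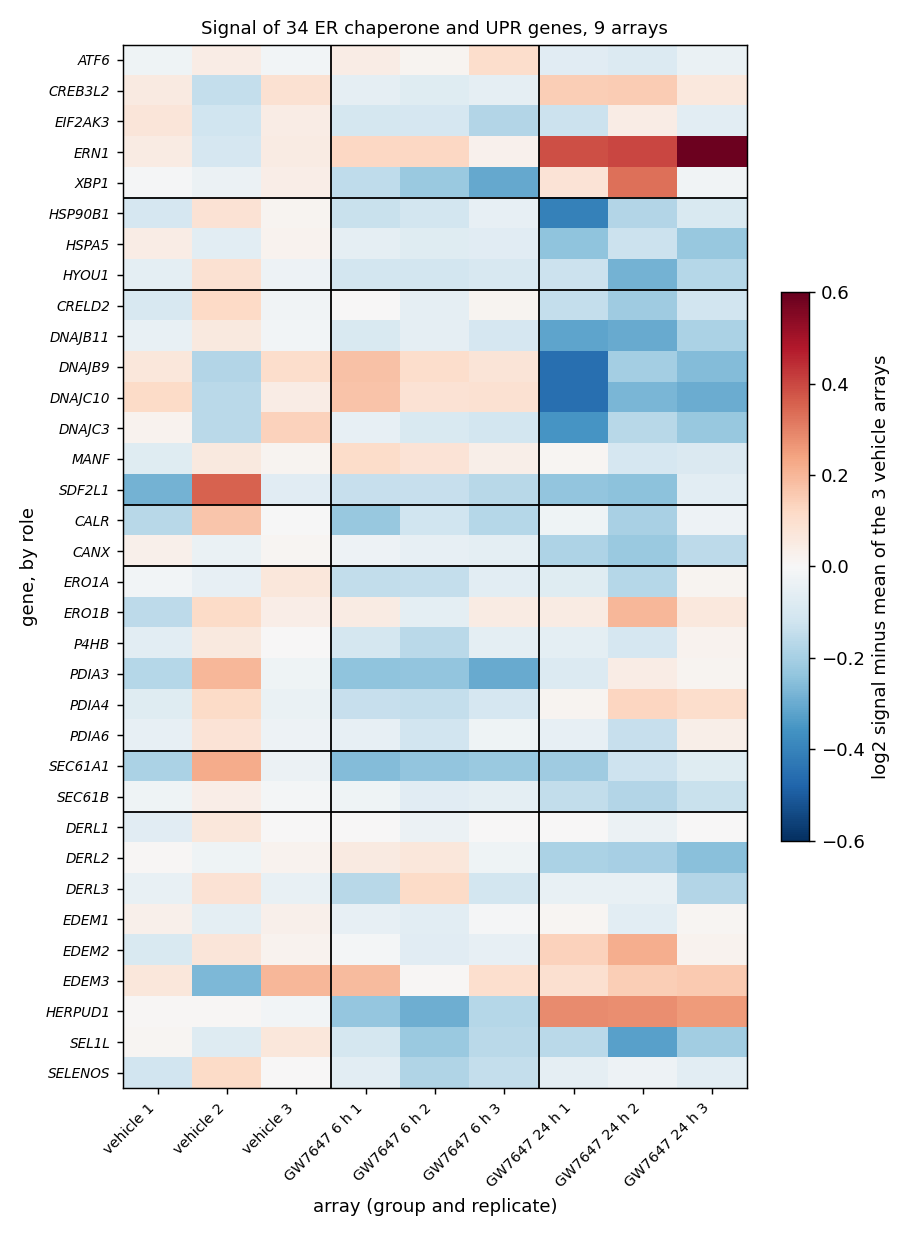
Log2 signal of each of the 34 transcripts on each of the 9 arrays minus the mean of its 3 vehicle arrays, ordered by role, with a colour scale from -0.6 to 0.6. The 24 h columns are mostly blue for the cochaperones, all 7 of which had means below vehicle, and red for HERPUD1 and ERN1.

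Among the chaperones proper, none passed in any comparison. They are HSPA5, which encodes BiP, the Hsp70 of the ER lumen, HSP90B1, which encodes GRP94, and HYOU1, a nucleotide exchange factor for BiP. All 3 means were below vehicle at 24 h, by 0.20 to 0.22, beside 9668 of 19775 over all genes. The chosen probe sets of HSP90B1 and HYOU1 may share probes with other transcripts. A second HSP90B1 probe set, of lower mean signal (7.46), read 0.22 at 6 h and 0.01 at 24 h. The HSPA5 log2 signal was 13.35, 13.24 and 13.33 on the vehicle arrays, 13.25, 13.24 and 13.24 at 6 h, and 13.07, 13.18 and 13.08 at 24 h. All 3 arrays at 24 h were below every vehicle array, while those at 6 h overlapped with vehicle. The difference at 24 h was -0.20 ± 0.06 (SE; 95% interval -0.32 to -0.08; adjusted p = 0.0527 by limma), and at 6 h -0.06 ± 0.06 (interval -0.19 to 0.06; adjusted p = 0.632). Without vehicle replicate 2 the 24 h difference was -0.23 and passed, with an adjusted p of 0.0338 by limma. A second HSPA5 probe set of lower mean signal (8.15) read -0.63 at 24 h, with an adjusted p of 6.34e-04 by limma over all probe sets.

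Among the cochaperones and small luminal cofactors, none passed at 6 h and 2 fell at 24 h (28.6% of 7, against 2.8% of all genes). DNAJB9, DNAJB11, DNAJC3 and DNAJC10 are J-domain partners of BiP, SDF2L1 is part of a complex with DNAJB11, and MANF and CRELD2 are secreted proteins of the response. All 7 means lay below vehicle at 24 h, from -0.34 to -0.06 with a median of -0.25, beside 9668 of 19775 over all genes. Without vehicle replicate 2, SDF2L1 and MANF read -0.007 and -0.03, and DNAJC3 read -0.33 and passed (limma adjusted p = 0.0196). All 7 were also below their 6 h means, beside 10478 of 19775 over all genes. There 2 of the 7 passed (28.6%, against 4.57% of all genes).

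DNAJC10, which encodes a disulfide reductase with a J domain, read 10.47, 10.19 and 10.40 in vehicle, 10.52, 10.43 and 10.44 at 6 h, and 9.90, 10.07 and 10.05 at 24 h. The 24 h arrays were below all other arrays, and vehicle replicate 2 was the lowest of the rest. It fell 1.27-fold against vehicle (95% interval 1.12 to 1.43; log2 change -0.34 ± 0.08 SE; limma adjusted p = 0.0227) and 1.37-fold against 6 h (1.22 to 1.55; -0.46 ± 0.08; limma adjusted p = 0.00295). At 6 h the difference from vehicle was 0.12 with an adjusted p of 0.527 by limma. Leaving out vehicle replicate 1 or 3, or replicate 1 at 24 h, ended the call against vehicle (limma adjusted p 0.0812, 0.0676 and 0.0817). Of its other 4 probe sets, readings at 24 h were -0.33, -0.33, -0.37 and 0.08.

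DNAJB11, which encodes ERdj3, read 11.65, 11.76 and 11.69 in vehicle, 11.61, 11.65 and 11.60 at 6 h, and 11.38, 11.40 and 11.51 at 24 h. Every 24 h array lay below all the others. It fell 1.21-fold against vehicle (1.11 to 1.32; -0.27 ± 0.06 SE; limma adjusted p = 0.0145), and its difference from 6 h, -0.19, had a limma adjusted p of 0.0512. The fall against vehicle missed the threshold without replicate 1 or replicate 2 at 24 h (limma adjusted p 0.0575 and 0.0536).

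DNAJB9, which encodes ERdj4, a J protein that keeps BiP bound to IRE1, read 10.00, 9.76 and 10.04 in vehicle, 10.11, 10.04 and 10.01 at 6 h, and 9.48, 9.73 and 9.68 at 24 h. All 24 h arrays were below all vehicle arrays, narrowly so for vehicle replicate 2, and clearly below the 6 h arrays. DNAJB9 fell 1.34-fold from 6 h to 24 h (1.18 to 1.53; -0.42 ± 0.09 SE; limma adjusted p = 0.00757). Against vehicle the 24 h difference was -0.31 ± 0.09 (limma adjusted p = 0.0540), and without vehicle replicate 2 it was -0.39 and passed (limma adjusted p = 0.0147). The chosen probe set may share probes with other transcripts, and the brightest DNAJB9 probe set without that mark read -0.22 from 6 h to 24 h (limma adjusted p = 0.189).

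**Figure D3:**
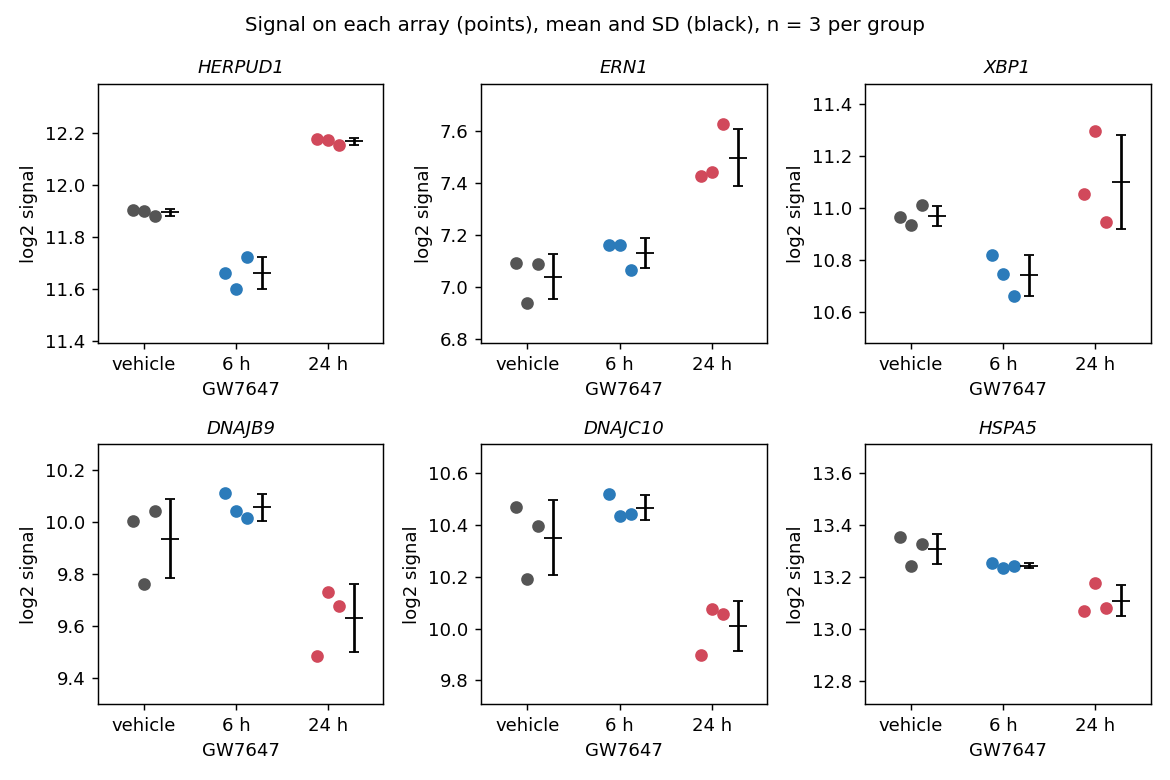
Log2 signal on each array for HERPUD1, ERN1, XBP1, DNAJB9, DNAJC10 and HSPA5 in vehicle, 6 h and 24 h GW7647, with points for the 3 arrays of each group and black marks for the mean and SD; each vertical axis spans 1 log2 unit. HERPUD1 lies lowest at 6 h and highest at 24 h with no overlap, and the 24 h arrays of DNAJC10, between 9.90 and 10.07, lie below all its other arrays.

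Of the 2 lectin chaperones that hold newly made glycoproteins, CALR (calreticulin) did not pass and CANX (calnexin) fell at 24 h. CANX read 13.04, 12.97 and 13.02 in vehicle, 12.98, 12.96 and 12.95 at 6 h, and 12.82, 12.79 and 12.85 at 24 h. The 24 h arrays were below all others, and the 6 h arrays overlapped with vehicle. The fall was 1.14-fold (1.05 to 1.23; -0.19 ± 0.05 SE; limma adjusted p = 0.0458). It passed only in the full set and without vehicle replicate 2 among the fits that left out 1 array; without any other array the limma adjusted p was above the threshold, up to 0.132 without replicate 2 at 24 h. It did not pass under either other scaling. The chosen probe set may share probes with other transcripts. The other CANX probe sets read -0.11, -0.12, -0.30 and 0.06 at 24 h, of which -0.30 passed (limma adjusted p = 0.0183 over all probe sets). With the mean of all CANX probe sets the difference was -0.13 and did not pass (limma adjusted p = 0.138).

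The 6 disulfide enzymes include the isomerases PDIA3, PDIA4, PDIA6 and P4HB and the oxidases ERO1A and ERO1B, which pass electrons from them to oxygen. None passed against vehicle at either time. All 6 means were higher at 24 h than at 6 h, from 0.01 to 0.25, beside 9297 of 19775 over all genes. That direction is the one of the chosen probe sets. The largest difference, 0.25, was of PDIA3, whose other probe sets read -0.12 and -0.17. PDIA4 was called (16.7% of the 6, against 9.23% of all genes). PDIA4 read 10.61, 10.79 and 10.64 in vehicle, 10.54, 10.53 and 10.57 at 6 h, and 10.69, 10.80 and 10.78 at 24 h. The 6 h arrays were lowest and the 24 h arrays overlapped with vehicle. It was 1.16-fold higher at 24 h than at 6 h (1.05 to 1.27; 0.21 ± 0.06 SE; limma adjusted p = 0.0460). That call was lost without vehicle replicate 3 or any 1 of the 6 treated arrays (limma adjusted p up to 0.139), and the second PDIA4 probe set read 0.04. SEC61A1 and SEC61B, subunits of the channel that threads nascent chains into the ER, did not pass in any comparison, and their differences from vehicle ran from -0.24 to -0.05.

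**Figure D4:**
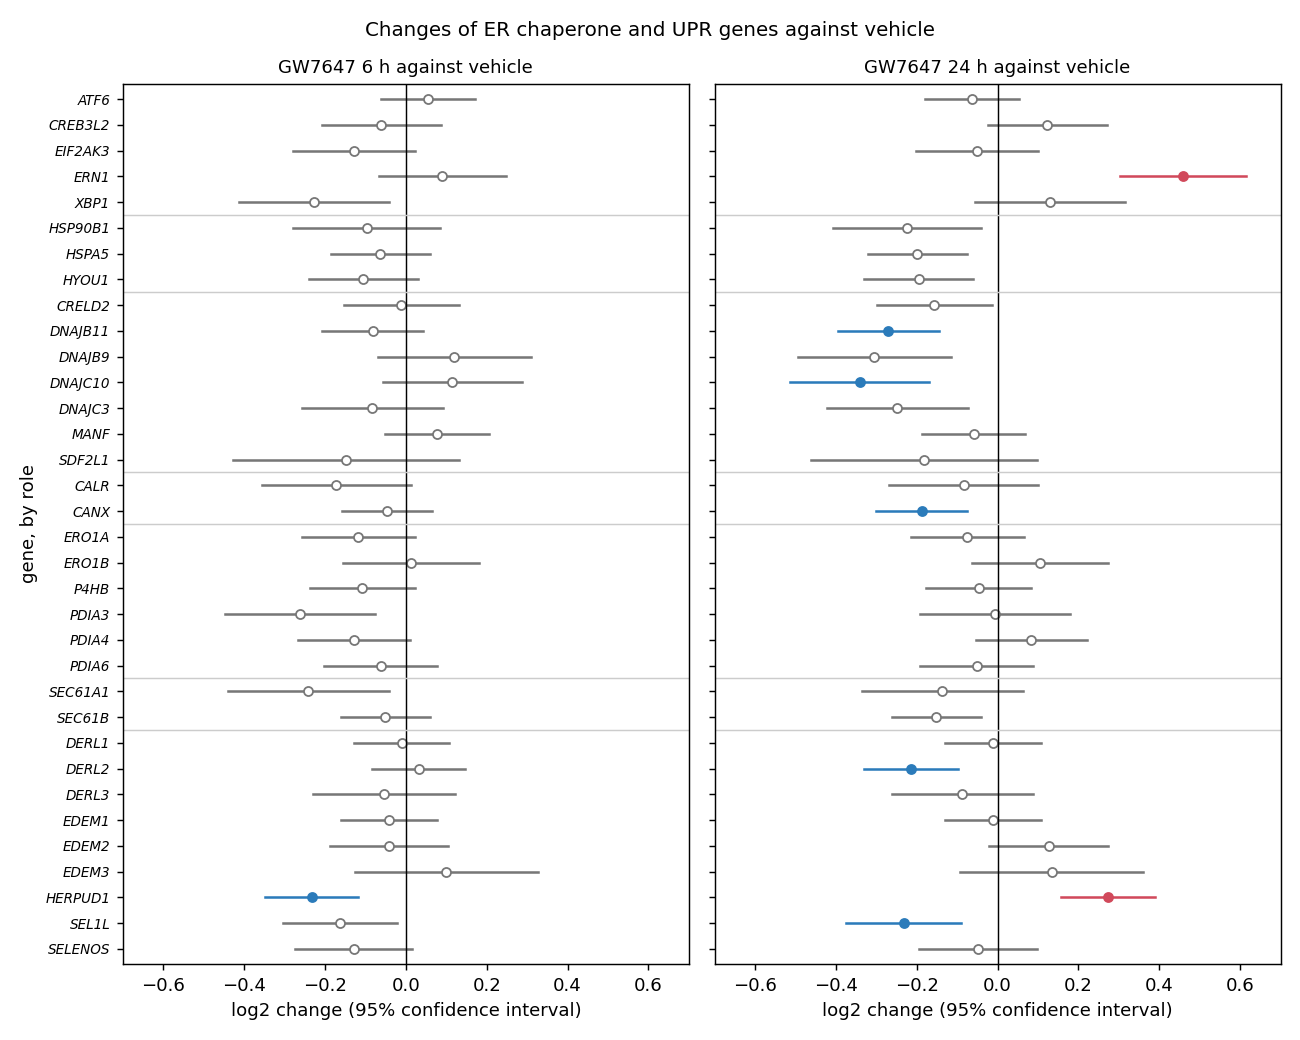
Log2 change with its 95% interval for each of the 34 transcripts at 6 h and 24 h against vehicle, with filled red for those that rose, filled blue for those that fell and open grey for those that did not pass. At 6 h only HERPUD1 is filled; at 24 h ERN1 (0.46) and HERPUD1 (0.27) are red and 5 are blue, from DNAJC10 (-0.34) to CANX (-0.19).

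ER-associated degradation returns misfolded protein to the cytosol for the proteasome. HERPUD1, a membrane protein that organises the degradation complex and a classical target of the response, differed between every pair of groups. Its log2 signal was 11.90, 11.90 and 11.88 in vehicle, 11.66, 11.60 and 11.72 at 6 h, and 12.18, 12.17 and 12.15 at 24 h. No array of 1 group overlapped with another group: 6 h lay lowest and 24 h highest. Against vehicle (11.89 ± 0.012, SD, n = 3) it fell 1.17-fold at 6 h (1.08 to 1.27; -0.23 ± 0.05 SE; limma adjusted p = 0.0372). It rose 1.21-fold at 24 h (1.12 to 1.31; 0.27 ± 0.05; limma adjusted p = 0.00888). From 6 h to 24 h it rose 1.42-fold (1.31 to 1.54; 0.51 ± 0.05; limma adjusted p = 1.54e-04). Both rises passed without any 1 of the 9 arrays, whereas the fall at 6 h passed without replicate 2 at 24 h and was lost without any other array (limma adjusted p up to 0.160, without replicate 2 at 6 h). The chosen probe set may share probes with other transcripts. The only other HERPUD1 probe set, of far lower mean signal (5.20), read -0.21, 0.02 and 0.23 in the 3 comparisons and passed in none.

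SEL1L, the adaptor of an ER membrane ubiquitin ligase, read 9.60, 9.52 and 9.66 in vehicle, 9.49, 9.37 and 9.43 at 6 h, and 9.43, 9.27 and 9.38 at 24 h. Every treated array was below every vehicle array, and the treated groups overlapped. It fell 1.17-fold at 24 h (1.06 to 1.30; -0.23 ± 0.06 SE; limma adjusted p = 0.0498), and the 6 h difference was -0.16 (limma adjusted p = 0.233). The call held without vehicle replicate 2 and was lost without any other single array (limma adjusted p up to 0.164, without replicate 2 at 24 h).

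DERL2, a derlin of the retrotranslocation channel, read 10.08, 10.05 and 10.10 in vehicle, 10.13, 10.15 and 10.05 at 6 h, and 9.89, 9.88 and 9.83 at 24 h. Those at 24 h were the lowest and the other groups overlapped. It fell 1.16-fold against vehicle (1.07 to 1.26; -0.21 ± 0.05 SE; limma adjusted p = 0.0307) and 1.19-fold against 6 h (1.09 to 1.28; -0.25 ± 0.05; limma adjusted p = 0.0102). A second DERL2 probe set read -0.44 and -0.52 in the same comparisons (limma adjusted p over all probe sets 0.00312 and 7.26e-04). The fall against vehicle was lost without vehicle replicate 1 or 3, replicate 1 at 6 h or any array at 24 h (limma adjusted p up to 0.0985, without replicate 3 at 24 h). The fall against 6 h was lost without replicate 2 at 6 h (limma adjusted p = 0.0510). The other 6 measured degradation genes, the mannosidase-like EDEM1, EDEM2 and EDEM3, the derlins DERL1 and DERL3 and the selenoprotein SELENOS, passed in no comparison.

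Among the sensors, ERN1 rose at 24 h and ATF6 and EIF2AK3 did not pass. ERN1 read 7.09, 6.94 and 7.09 in vehicle, 7.16, 7.16 and 7.06 at 6 h, and 7.43, 7.44 and 7.62 at 24 h. All 3 arrays at 24 h lay above all others. Its rise was 1.37-fold against vehicle (1.23 to 1.53; 0.46 ± 0.07 SE; limma adjusted p = 0.00280) and 1.29-fold against 6 h (1.16 to 1.44; 0.37 ± 0.07; limma adjusted p = 0.00578). The 6 h difference was 0.09 (interval -0.07 to 0.25; limma adjusted p = 0.590). Both rises passed without any 1 of the 9 arrays. The probe sets of ERN1 disagreed, however: a second one of similar mean signal (7.11) read 0.26 at 6 h, 0.07 at 24 h and -0.19 from 6 h to 24 h. The mean over all ERN1 probe sets rose by 0.15 at 24 h and did not pass (limma adjusted p = 0.102).

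ATF6 read 9.33, 9.40 and 9.34 in vehicle, 9.40, 9.37 and 9.46 at 6 h, and 9.29, 9.28 and 9.32 at 24 h. The 24 h arrays were lowest by a small margin, with a difference from vehicle of -0.06 ± 0.05 (interval -0.18 to 0.05; limma adjusted p = 0.549). Dimmer ATF6 probe sets, of mean signal 7.63 and 6.55, read -0.45 and -0.32 at 24 h, with limma adjusted p of 0.00328 and 0.0251 over all probe sets. EIF2AK3, which encodes PERK, read 9.21, 9.01 and 9.18 in vehicle, 9.03, 9.03 and 8.96 at 6 h, and 9.004, 9.18 and 9.07 at 24 h, and its groups overlapped. Its differences from vehicle were -0.13 ± 0.07 at 6 h (interval -0.28 to 0.02) and -0.05 ± 0.07 at 24 h (interval -0.20 to 0.10), with limma adjusted p of 0.399 and 0.747.

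XBP1, whose spliced mRNA encodes the active factor, read 10.96, 10.93 and 11.01 in vehicle, 10.82, 10.75 and 10.66 at 6 h, and 11.05, 11.30 and 10.95 at 24 h. The 6 h arrays were below all others, and the 24 h arrays overlapped with vehicle. XBP1 rose 1.28-fold from 6 h to 24 h (1.13 to 1.46; 0.36 ± 0.08 SE; limma adjusted p = 0.0163), a call lost without replicate 2 or 3 at 6 h (limma adjusted p 0.0580 and 0.0693). Against vehicle it did not pass: -0.23 ± 0.08 at 6 h (limma adjusted p = 0.201) and 0.13 ± 0.08 at 24 h (limma adjusted p = 0.424). The second XBP1 probe set, near the lower end of signal (4.93), read -0.01 from 6 h to 24 h. These probe sets measure XBP1 mRNA in total and do not report its splicing.

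The 24 transcripts that passed in no comparison differed from vehicle by at most 0.26 in either direction at 6 h or 24 h. Their 95% intervals reached from -0.45 to 0.33 at 6 h and from -0.46 to 0.36 at 24 h, so changes beyond those bounds lie outside every interval. ERO1B and DERL3 had mean signals of 5.01 and 6.45, below the all-gene median of 6.74, and the other 32 were above it. The 11 genes with an ER stress element or element II had a median difference of -0.10 at 6 h and -0.16 at 24 h, with HERPUD1 lower and then higher and CANX lower as the only calls against vehicle. The other 23 had medians of -0.05 and -0.06, with 1 higher and 4 lower at 24 h. These 23 include PDIA3, DERL1 and DERL3, for which no window was at hand and no search was made. The medians of the 11 rested on vehicle replicate 2. Without it they were -0.06 at 6 h and -0.01 at 24 h, and those of the other 23 were -0.05 and -0.04, so the order at 24 h turned. The difference between these subsets was not tested.

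Further genes of the pathway were followed in 6 lists with 132 measured genes, which do not include the 34. Of the PERK and ATF4 branch, all 16 listed genes were measured. The list also held EIF2AK1, EIF2AK2 and EIF2AK4, kinases other than PERK, so its counts do not stand for PERK alone. At 6 h 2 of 16 rose (12.5%, against 1.64% of all genes) and 0 fell. At 24 h 7 rose (43.8%, against 5.38%; 5 to 7 without each array in turn) and 0 fell, with a median of 0.19. The 6 lists were chosen with earlier results of these data known, so their shares are descriptive. TRIB3, a pseudokinase induced by ATF4, read 11.33, 11.41 and 11.40 in vehicle, 12.04, 12.06 and 12.05 at 6 h, and 12.15, 12.17 and 12.06 at 24 h. Its treated arrays lay well above vehicle at both times, and it rose 1.59-fold at 6 h (1.46 to 1.73; limma adjusted p = 5.98e-05) and 1.68-fold at 24 h (limma adjusted p = 1.49e-05). ATF3, a stress-induced repressor, rose 1.35-fold at 6 h (log2 change 0.44; limma adjusted p = 0.00268) by a probe set that may share probes with other transcripts. Without such probe sets the ATF3 reading was 0.02 (limma adjusted p = 0.919), and the mean of all its probe sets gave 0.15 (0.133). ATF4 itself read 11.62, 11.89 and 11.73 in vehicle, 11.88, 11.85 and 11.96 at 6 h, and 12.59, 12.66 and 12.64 at 24 h. Only its 24 h arrays lay apart from vehicle, and it rose 1.84-fold there (1.65 to 2.06; limma adjusted p = 3.28e-05). NUPR1, a small stress-induced chromatin protein, rose 1.87-fold at 24 h (limma adjusted p = 1.08e-04). DDIT3, which encodes CHOP, the death-linked factor downstream of ATF4, read 8.50, 8.73 and 8.51 in vehicle, 8.68, 8.58 and 8.55 at 6 h, and 8.41, 8.55 and 8.44 at 24 h. Its groups overlapped, with a 24 h difference of -0.11 ± 0.07 (SE; limma adjusted p = 0.425).

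The calls of the remaining 5 lists against vehicle are set beside the shares of all genes. Of all genes, 1.64% rose and 1.91% fell at 6 h, and 5.38% rose and 2.8% fell at 24 h. Of 11 genes of ATF6 processing and the ER-membrane bZIP factors, WFS1, which encodes wolframin, fell at 6 h (9.09%; by 0.34, limma adjusted p = 0.0161). CREB3L3, a liver bZIP factor, and CREB3L4 rose at 24 h (0.59 and 0.29), 18.2% of the 11. Of 27 other folding enzymes and lectins, FKBP14, a prolyl isomerase, fell at 6 h (3.7%; by 0.44, limma adjusted p = 0.0461). At 24 h ERP29 rose (0.27) and UGGT2, a glycoprotein folding sensor, fell (by 0.44), 3.7% of the 27 each way. Of 22 other degradation genes, 0 passed at 6 h, and at 24 h 2 rose (9.09%) and 3 fell (13.6%), among them FBXO6, a lectin subunit of a ubiquitin ligase (0.55, limma adjusted p = 4.85e-04), UFD1 (-0.35) and the ligase MARCHF6 (-0.31). Of 34 translocon, signal peptidase and glycosylation genes, 0 passed at 6 h, and at 24 h SEC61A2 (0.40) and SRPRA (0.22) were among the 3 that rose (8.82%) while SEC11C, a signal peptidase subunit, fell (by 0.28; 2.94%). Of 22 retrieval and vesicle traffic genes, 0 passed at 6 h and 3 rose at 24 h (13.6%). Several of these calls rested on single arrays. That of WFS1 at 6 h was lost without replicate 1 or 2 at 6 h (limma adjusted p up to 0.0805), and that of FKBP14 without any array but vehicle replicate 2 (up to 0.192). At 24 h CREB3L3 was lost without vehicle replicate 1 or 3 or replicate 2 or 3 at 24 h (limma adjusted p up to 0.0890), and CREB3L4 without vehicle replicate 1 or 3 or replicate 1 or 2 at 24 h (up to 0.103). ERP29 was lost without replicate 2 at 24 h (limma adjusted p = 0.0516), SEC61A2 without replicate 1 or 3 at 24 h (up to 0.0651), and SRPRA without vehicle replicate 3 or replicate 1 or 2 at 24 h (up to 0.0793). Over the fits that left out 1 array, 0 to 3 genes of the ATF6 processing list, 0 to 1 of the folding list, 1 to 2 of the degradation list and 0 to 4 of the translocon list rose at 24 h. With the mean of all probe sets of a gene, 5 of the calls at 24 h were lost: MARCHF6 read -0.11 (limma adjusted p = 0.257), SEC11C -0.09 (0.463), UGGT2 -0.24 (0.0532), SEC61A2 0.20 (0.0635) and SRPRA 0.15 (0.247).

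**Figure D5:**
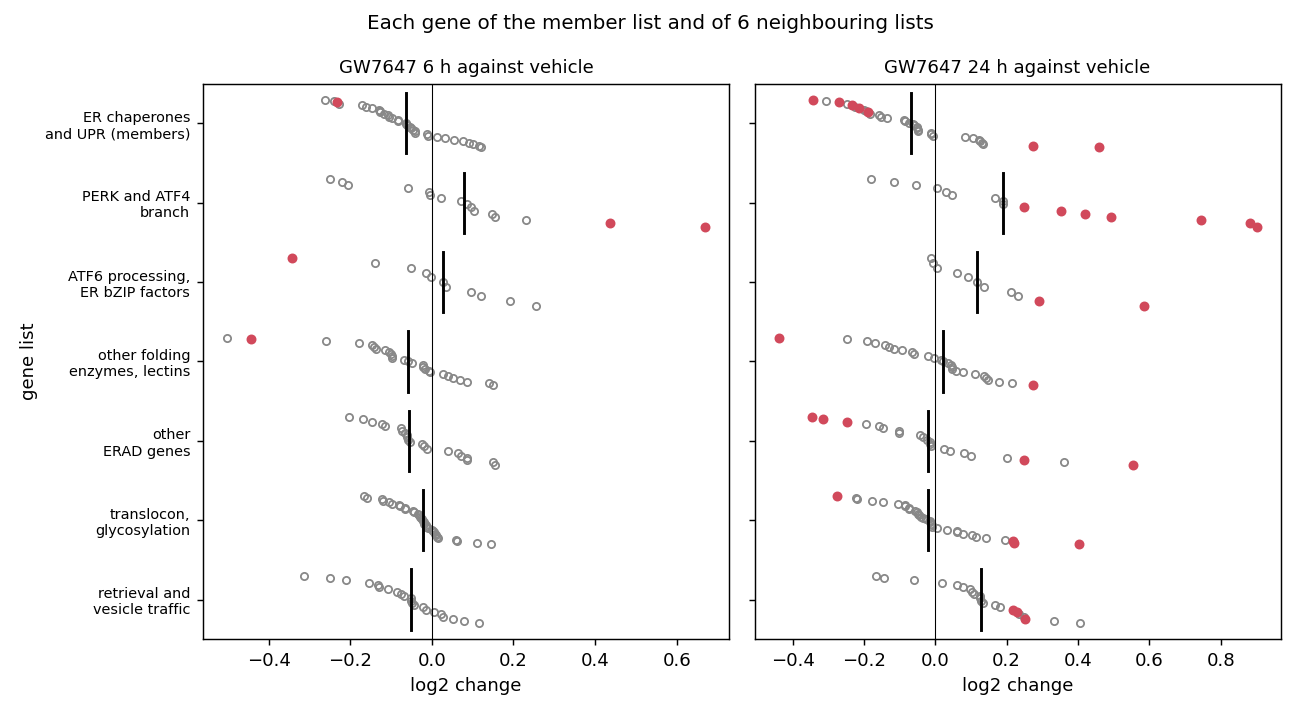
Log2 change of every measured gene of the 34-transcript list and of 6 further pathway lists at 6 h and 24 h against vehicle, with red points for genes that passed, open grey points for those that did not and a black bar for each median. The PERK and ATF4 branch has 7 of 16 genes called higher at 24 h, with a median of 0.19, whereas the 34-transcript list has a median of -0.07.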

How the data were processed

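The authors deposited log2 probe set signals for 9 arrays. RMA is named, with no version, in the submitters' processing notes, and no source used here gives its software or the chip definition. RMA, as a method, brings all arrays to 1 distribution, which removes a shift common to all genes, and its median polish can give equal values: 10 of the 34 transcripts had the same value on at least 2 arrays. Per the labels' protocols, total RNA was turned into biotin-labelled cRNA by 1 cycle of synthesis.

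Of 54675 probe sets, 62 were controls, 41097 had 1 gene symbol, 1801 had several and 11721 none. After removal of controls, 41091 of the 41097 were kept. A gene ID of the GRCh38.p14 annotation was found for 41043, and 0 symbols changed. Each gene was read from its probe set of highest mean over the 9 arrays, and no filter on signal was applied. The 34 genes had 85 probe sets, 8 genes with 1 and 26 with several. The chosen one ended in _x_at for 5 genes and in _s_at for 11, endings that mark probes possibly shared between transcripts or genes. The number of arrays limits the precision of every value.

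A linear model of the 3 group means was fitted to the 9 arrays with limma 3.58.1 in R 4.3.3 (lmFit, default eBayes with 6 residual degrees of freedom and 11.0 in total; data.table, version 1.17.8, for reading). Each of 3 comparisons was tested two-sided and adjusted by Benjamini-Hochberg over 19775 genes, with calls at an adjusted p under 0.05. Intervals are 95% intervals of the moderated fit. With 3 arrays a group, the smallest p of an exact permutation test is 0.1. The fit was tested on a single simulated draw, with genes independent of each other and fewer changed genes than were called here. In that draw it recovered most large changes but only a minority of changes near the size called here. The share of false calls was above the nominal one. These shares belong to that setting and do not measure the sensitivity or the false share of the present calls. Figures were drawn with matplotlib 3.10.9 and pandas 2.3.3 in Python 3.11.15.

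Genes that passed in at least 1 comparison, the 3 sensors, XBP1 and HSPA5 were described array by array. From each pathway list, at most 3 called genes, those of largest change, were named, as were ATF4 and DDIT3. The members, lists and rules were chosen with earlier results of these data known. Replicate numbers in the labels were not used to pair samples. Deviations from group means of equally numbered arrays correlated at -0.20 to 0.09 over 9 pairs. The alternatives covered the choice of probe set, the scaling, low signal, the prior, the groups in the fit, the replicate number, the threshold and the arrays left out. The ends of the proteins were not analysed here.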

Additional observations from a re-analysis of the deposited data

Results flagged for a closer look

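For 7 transcripts of the folding and degradation machinery the change from vehicle differed between 6 h and 24 h, by limma's test of 24 h against 6 h, in which the shared vehicle arrays cancel. HERPUD1 was higher at 24 h than at 6 h by 0.51 on the log2 scale, with all 3 arrays above, and its mean was below vehicle at 6 h and above it at 24 h. ERN1 was higher at 24 h by 0.37, with all 3 arrays above, although a second probe set read -0.19. XBP1 was higher at 24 h by 0.36, with all 3 arrays above. PDIA4 was higher at 24 h by 0.21, with all 3 arrays above. DNAJC10 had a log2 difference of -0.46, with all 3 arrays at 24 h below those at 6 h. DNAJB9 had a log2 difference of -0.42, likewise with all 3 arrays below. DERL2 had a log2 difference of -0.25, likewise with all 3 arrays below. The limma adjusted p-values ran from 1.54e-04 for HERPUD1 to 0.0460 for PDIA4, and time in culture and length of exposure cannot be told apart.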

How the results depend on the processing

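No result changed direction and side together, and the signs that turned belonged to values that passed in neither setting. Of 15 calls on named members, 0 held under all 19 alternatives, which include at least a 1.5-fold change, under which 0 members were called in any comparison.

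For 6 h against vehicle the 1 lower member became 0 with the mean of all probe sets, without shared probe sets, with only the 2 groups compared, with the replicate block and at an adjusted p under 0.01, and 2 with an intensity trend and robust prior. Against vehicle at 24 h the 2 higher became 0 with the mean of all probe sets and 1 without shared probe sets. The 5 lower became 9 with quantile normalization, 2 with median centring, 10 among genes above the median signal, 10 with the trend, 0 with only the 2 groups compared, 2 with the replicate block and 0 at an adjusted p under 0.01. From 6 h to 24 h the 4 higher became 2 with the mean of all probe sets, without shared probe sets and at an adjusted p under 0.01. The 3 lower became 5 with the mean, quantile normalization or genes above the median, and 6 with the trend. The members' median at 24 h was -0.11 with the mean of all probe sets.

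Of all genes, the 701 called at 6 h became 454 without shared probe sets, 1206 above the median, 1104 with the trend, 454 with only the 2 groups, 427 with the replicate block, 234 at an adjusted p under 0.01 and 78 at 1.5-fold. The 1616 at 24 h became 921 with only the 2 groups, 695 and 173 under those thresholds, and the 2729 between times 1774 without shared probe sets, 1328 and 267. The causes were not tested.

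Leaving out each of the 9 arrays gave 0 higher and 0 to 1 lower members at 6 h, 2 higher and 0 to 8 lower at 24 h, and 2 to 6 higher and 2 to 4 lower between times. The medians ran from -0.08 to -0.06, -0.10 to -0.04 and -0.01 to 0.02. All genes called ran from 261 to 637, 1005 to 1664 and 1519 to 3082. Replicate numbers did not pair the samples, and the block is given as a number only. The same alternatives were applied to the pathway lists after seeing the data. Under the scalings the median of all genes moved by less than 0.1.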

Other observations

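Genes of traffic between the ER and the Golgi were among those that differed from 6 h to 24 h. Of 22 measured retrieval and vesicle genes, 10 were higher at 24 h than at 6 h (45.5%, against 9.23% of all genes) and 1 was lower, with a median of 0.21. The 9.23% includes genes of low signal. With the fit confined to genes above the median signal, a smaller set, 3407 were called in either direction, beside 2729 over all genes. The background share among brighter genes was thus higher. SEC24D, a cargo adaptor of COPII coats, differed by 0.72, a call lost without any 1 array at 6 h (limma adjusted p up to 0.0584) and with the mean of its probe sets (0.37, 0.100). ARFGAP3, which releases COPI coats, differed by 0.40, a call lost without vehicle replicate 3, any 1 array at 6 h, or replicate 1 or 2 at 24 h (limma adjusted p up to 0.152). COPA, a COPI coat subunit, differed by 0.38 and passed without any 1 of the 9 arrays. Against vehicle at 24 h, COPA (0.25, limma adjusted p = 0.0303), COPB1, another COPI subunit (0.23, 0.0450), and KDELR3, a receptor that retrieves chaperones (0.22, 0.0402), rose. The count of 10 rested on single arrays. It was 3, 2 and 4 without replicates 1, 2 and 3 at 6 h, 4 and 3 without replicates 1 and 2 at 24 h, and 7 to 12 without each other array. The count of 3 against vehicle at 24 h was 0 to 2 without each array in turn, and with the mean of all probe sets COPA read 0.14 (limma adjusted p = 0.125) and COPB1 0.15 (0.0972).

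The unfolded protein response element TGACGTGG was found in 6 of 21 promoter windows of the retrieval and vesicle list (28.6%), those of KDELR3, SEC23A, SEC24A, COPA, COPB1 and COPB2, against 0.927% of all genes. The match of this element to COPA, COPB1 and KDELR3 was seen after their values. The C/EBP-ATF composite was found in 4 of 14 windows of the PERK and ATF4 list (28.6%), those of PPP1R15B, CHAC1, ATF3 and CEBPG, against 4.46% of all genes.

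From 6 h to 24 h, when 9.23% of all genes were higher and 4.57% lower, 5 of 16 genes of the PERK and ATF4 branch were higher (31.2%) and 2 lower (12.5%), and the count higher was also 5 without each array in turn. Of 11 genes of ATF6 processing, 3 were higher (27.3%; 1 to 4 without each array in turn), WFS1 (0.44) and MBTPS1, the protease that cuts ATF6 in the Golgi (0.25), among them. The MBTPS1 call was lost without any 1 array at 6 h or replicate 3 at 24 h (limma adjusted p up to 0.0683). Of the other folding enzymes, 4 were higher (14.8%) and 1 lower (3.7%), with FKBP14 at 0.59 and ERP29 at 0.42. Of the other degradation genes, 3 were higher (13.6%), ERLEC1 (0.31) among them, and 2 lower (9.09%). In the translocon and glycosylation list 3 were higher (8.82%; 1 to 5 without each array in turn), RPN1 (0.31) among them, and SPCS3, a signal peptidase subunit, was lower (by 0.22). The SPCS3 call was lost without vehicle replicate 1, any 1 array at 6 h, or replicate 1 or 3 at 24 h (limma adjusted p up to 0.152), and with the mean of its probe sets (-0.11, 0.223).

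Among probe sets other than the chosen one, ERO1A had a second probe set that read 0.29 at 24 h against vehicle (limma adjusted p = 0.0510 over all probe sets) and 0.36 from 6 h to 24 h (0.0136), where the chosen one read -0.07 against vehicle. Of the 7 genes called at 24 h against vehicle, 6 had others, 15 probe sets in all. Of these, 12 had the same sign and 3 also passed, with adjustment over all probe sets. Under that adjustment the chosen probe sets of CANX, SEL1L and DERL2 did not pass at 24 h (limma adjusted p 0.0742, 0.0726 and 0.0509). Nor did that of HERPUD1 at 6 h (0.0640) or that of PDIA4 from 6 h to 24 h (0.0695).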
